A study of Sus scrofa with 16 samples.

Results

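The heat shock and endoplasmic reticulum (ER) stress genes described here are 40 genes of the protein-folding machinery, measured by RNA-seq in the hippocampus of 16 preterm pigs with or without necrotizing enterocolitis (NEC), an inflammatory disease of the immature gut. Members were taken by symbol through a reference table of pig gene IDs. A gene was kept where its mean over the pigs was at least 0.5 FPKM (fragments per kilobase of transcript, scaled to the library's mapped fragments, a level corrected for transcript length). Of the 40 genes, 29 were found and all 29 reached this mean, as 31 of the 13590 entries tested, because HSF1 and ATF6 each have 2 entries under 1 gene ID. The heat shock genes gave 16 entries for 15 genes and the ER stress genes 15 entries for 14 genes. DNAJB6, HSPB1, CRYAB, HSPA2, SDF2L1, P4HB, ERN1, ATF4, DDIT3, TRIB3 and CHAC1 were matched to no entry with FPKM values and were not analysed here. The reference table lists no ID for HSPA2, and the IDs it lists for the others were not among those with FPKM values. Of 21956 gene IDs, 11001 carried a symbol, so entries of these genes may be among the rest, and statements on members do not cover them. Most of the ATF4 arm of the stress response is therefore missing from the description.

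The pigs were delivered preterm by caesarean section, received rising amounts of human donor milk and falling amounts of parenteral nutrition, and were killed after about a week. NEC arose spontaneously and was graded from gut lesions, so no pig was allocated to a group. The 5 No NEC pigs (label noNEC) had no lesions in any gut region, the 5 Co-NEC pigs (coNEC) had severe lesions in the colon only, and the 6 Si-NEC pigs (siNEC) had severe lesions in the small intestine, with or without the colon. There were 7 females and 9 males, and each library came from the left hippocampus of a single pig. The labels do not say which pigs were littermates, so p-values measure the spread between these pigs.

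Heat shock proteins are chaperones that bind unfolded or aggregating proteins and help them fold, and the transcription factor HSF1 switches on many of their genes when misfolded protein accumulates in the cytosol. The ER holds a parallel set of chaperones for secreted and membrane proteins. When these are overloaded, the sensors ATF6, IRE1 (gene ERN1) and PERK start the unfolded protein response, which raises ER chaperones through ATF6 and XBP1 and, through ATF4, genes of amino acid supply and cell death. In brain, constitutive members such as HSPA8 and HSP90AB1 are abundant in neurons.

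The table holds no read counts, so the depth behind each value is unknown. FPKM values summed to 544629 to 864931 per pig, with the 2 highest sums in No NEC pig 230-15 and Si-NEC pig 223-15, whose median correlations with the rest (0.902 and 0.933) were the lowest. Markers of neurons, astrocytes and oligodendrocytes were all well above 0, with summed levels of the 3 neuronal markers found between 1177 and 2132 FPKM and of the 2 astrocyte markers found between 568 and 1206. The astrocyte marker ALDH1L1 was in the table at a mean under 0.5 FPKM. The neutrophil marker S100A8 ran from 2.21 to 25.0 FPKM in Si-NEC pigs against 0.764 to 3.09 in No NEC and 0.734 to 2.31 in Co-NEC pigs, while a second one, CSF3R, had a mean under 0.5 FPKM. In bulk tissue, fewer cells of a type and less RNA per cell cannot be told apart.

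The cytosolic HSP90AA1 had the highest mean level of the members, 752 FPKM over the 16 pigs, followed by HSP90AB1 and the HSP70 cochaperone DNAJA1 (both 248 FPKM), the mitochondrial cochaperonin HSPE1 (242 FPKM) and the ER lectin chaperone CALR (193 FPKM). The stress-induced transcription factor ATF3 was the lowest, at 0.816 FPKM. The ratio of the highest to the lowest pig was at least 2 for 24 of the 31 entries, with a median of 2.42, against a median of 2.24 and 61.0% of entries at that ratio among the 13208 tested entries above 0 in every pig. Si-NEC pig 223-15 was the highest pig for 18 of the 31 entries, where it was for 17.5% of all entries, and Si-NEC pig 224-15 for 7, where it was for 4.82%. No NEC pig 253-15 was the lowest for 15, where it was for 16.5%. Over all entries 223-15 also had the highest median deviation from the mean of the 16 pigs (0.11 on the log2 scale) and 253-15 the lowest (-0.08), and the part of this in the members' values was not tested.

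**Figure D1:**
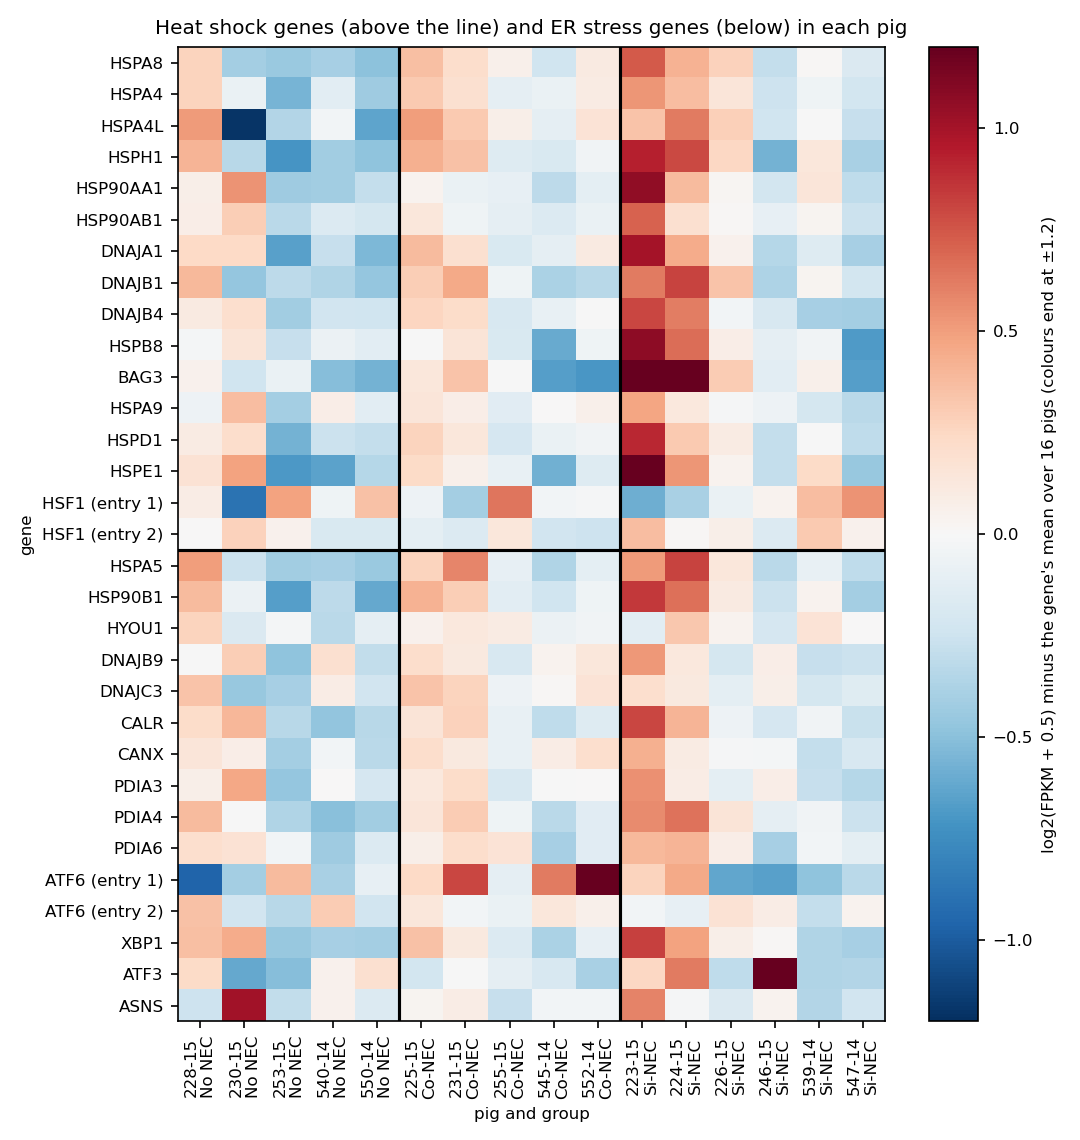
Level of each of the 31 entries in each of the 16 pigs, as log2(FPKM + 0.5) minus the entry's mean over the pigs. Red marks a pig above the mean and blue below. Vertical lines part the No NEC, Co-NEC and Si-NEC pigs and the horizontal line parts heat shock from ER stress genes. The Si-NEC columns 223-15 and 224-15 are red for most genes. Si-NEC column 547-14 is blue for most genes, with median deviations of -0.30 (heat shock) and -0.26 (ER stress). Column 246-15 is mostly blue for heat shock genes, column 539-14 for ER stress genes, and column 226-15 is mixed.

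None of the 31 entries passed the threshold of an adjusted p under 0.2 in any comparison of groups (limma, adjusted over all 13590 entries by Benjamini-Hochberg). Of all entries, 0.00736% were called when Si-NEC was set against No NEC, 0.00736% when Co-NEC was, and 0.0147% when the NEC groups were set against each other. Members reached adjusted p-values no smaller than 1, 0.812 and 0.851 in the same order. No member had groups that did not overlap, against 0.155%, 0.464% and 0.545% of all entries. At an unadjusted p under 0.05, Si-NEC exceeded No NEC for 1 member (1.59% of all entries) and was below it for 0 (1.02%). Co-NEC exceeded No NEC for 2 members (2.12%) and was below it for 0 (1.32%). Si-NEC was below Co-NEC for 1 member (2.40%) and exceeded it for 0 (3.25%). Leaving out No NEC pig 228-15 moved these counts to 7 higher in Si-NEC (2.30% of all entries) with 0 lower (1.97%), and to 8 higher in Co-NEC (4.10%) with 0 lower (3.39%), and 0 members passed an adjusted p of 0.2 in these fits (limma; smallest 0.990 and 0.620). This pig was picked out after the values were seen, as the highest No NEC pig for HSPA8, DNAJB1 and HSPA5. Leaving it out lowers the No NEC level of such genes, so the larger counts only show how much they depend on 1 pig. Of the fits leaving out each pig, these gave the largest counts. With all pigs, the members past the unadjusted threshold were HSPA8 in both comparisons with No NEC, and the first entry of ATF6 in both comparisons with Co-NEC. In the values below, No NEC pigs are given in the order 228-15, 230-15, 253-15, 540-14 and 550-14 and Co-NEC pigs in the order 225-15, 231-15, 255-15, 545-14 and 552-14. Fold changes are differences in mean log2(FPKM + 0.5), with the standard error (SE), and exact p-values are from two-sided permutation tests of that difference.

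HSPA8 encodes HSC70, the constitutive cytosolic HSP70 that folds new proteins and uncoats clathrin vesicles. It stood at 133, 83.1, 81.1, 83.7 and 78.7 FPKM in the No NEC pigs. The Co-NEC pigs were at 142, 128, 115, 93.4 and 119 FPKM. The Si-NEC pigs ran from 90.7 to 185 with a median of 123 FPKM. All Co-NEC and Si-NEC pigs lay above 4 of the 5 No NEC pigs, and No NEC pig 228-15 lay among them. The group means were 92.0 ± 23.2 (SD, n = 5) in No NEC, 119 ± 17.8 (n = 5) in Co-NEC and 128 ± 35.3 (n = 6) in Si-NEC pigs. Relative to No NEC, the Si-NEC log2 fold change was 0.46 ± 0.20 (SE), with an adjusted p of 1 by limma and an exact permutation p of 0.0628. In Co-NEC it was 0.39 ± 0.17, with an adjusted p of 0.812 and an exact permutation p of 0.0714. The 5 No NEC pigs are shared by both comparisons.

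HSPH1, an HSP110 protein that recharges HSP70 and is a sensitive HSF1 target, stood at 120.3, 71.9, 55.3, 67.6 and 64.6 FPKM in the No NEC pigs. It was at 122, 116, 81.6, 79.7 and 88.0 FPKM in the Co-NEC pigs. Si-NEC pigs had a lowest value of 60.9, a median of 104 and a highest value of 173 FPKM. The groups overlapped, with 2 Si-NEC pigs above and none below all No NEC pigs. Its log2 fold changes were 0.50 ± 0.29 (Si-NEC) and 0.39 ± 0.21 (Co-NEC), with exact permutation p-values of 0.160 and 0.127. Of the other HSP70-like members, HSPA4 had log2 fold changes of 0.27 ± 0.18 (Si-NEC) and 0.27 ± 0.16 (Co-NEC). HSPA4L, whose levels ran from 5.68 FPKM in No NEC pig 230-15 to 21.0 FPKM in 224-15, had 0.46 ± 0.27 and 0.53 ± 0.27.

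HSP90AA1, the inducible cytosolic HSP90 that holds kinases and steroid receptors ready for use, was at 758, 1049, 537, 541 and 594 FPKM in the No NEC pigs. The Co-NEC pigs were at 745, 684, 676, 580.0 and 667 FPKM. The Si-NEC pigs ran from 584 to 1516 with a median of 767 FPKM. The spread came from single pigs, as 223-15 stood at 1516 FPKM and No NEC pig 230-15 at 1049. Against No NEC, its log2 fold change came to 0.29 ± 0.26 in Si-NEC (exact permutation p = 0.331) and -0.01 ± 0.19 in Co-NEC (exact permutation p = 0.968). The constitutive HSP90AB1 differed by 0.16 ± 0.18 and 0.01 ± 0.13.

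DNAJB1, the J-domain cochaperone that delivers clients to HSP70 during heat shock, was at 86.6, 47.6, 53.2, 51.1 and 47.8 FPKM in the No NEC pigs. The Co-NEC pigs had 80.9, 90.7, 63.8, 50.6 and 52.4 FPKM. The Si-NEC pigs ran from 51.0 to 116 with a median of 75.7 FPKM. The No NEC pigs apart from 228-15 lay close together, at the level of the lowest NEC pigs. As a log2 fold change, the difference from No NEC was 0.45 ± 0.24 in Si-NEC (exact permutation p = 0.113) and 0.24 ± 0.21 in Co-NEC (exact permutation p = 0.294). DNAJB4, a related cochaperone, was at 23.2, 24.7, 15.9, 18.2 and 18.0 FPKM in No NEC pigs and at 25.6, 25.1, 18.7, 20.1 and 21.4 FPKM in Co-NEC pigs. Its Si-NEC values ran from 15.99 to 37.7 with a median of 19.8 FPKM. Its log2 fold changes were 0.18 ± 0.24 in Si-NEC (exact permutation p = 0.489) and 0.15 ± 0.14 in Co-NEC (exact permutation p = 0.310). DNAJA1 differed by 0.30 ± 0.27 and 0.28 ± 0.20.

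BAG3 links HSP70 and the small chaperone HSPB8 to autophagy of damaged proteins. It was at 10.7, 8.64, 9.70, 7.07 and 6.78 FPKM in the No NEC pigs. The Co-NEC pigs had 11.4, 13.2, 10.3, 6.32 and 6.17 FPKM. The Si-NEC pigs ran from 6.35 to 27.7 with a median of 11.8 FPKM. Si-NEC pigs 224-15 (27.7 FPKM) and 223-15 (25.4 FPKM) stood above every other pig, the next being at 13.2 FPKM. The log2 fold change against No NEC had the largest point estimate of the heat shock entries in Si-NEC, 0.64 ± 0.34 (exact permutation p = 0.145), and was 0.09 ± 0.22 in Co-NEC (exact permutation p = 0.706). Its partner HSPB8 was at 38.5, 43.5, 32.3, 37.2 and 35.9 FPKM in No NEC pigs and at 38.9, 43.7, 34.3, 25.6 and 37.7 FPKM in Co-NEC pigs. For Si-NEC pigs it ran from 24.3 to 83.0 with a median of 39.7 FPKM, so that both the lowest and the highest pig of the series were Si-NEC pigs. Its log2 fold changes were 0.24 ± 0.26 (exact permutation p = 0.429) and -0.07 ± 0.14 (exact permutation p = 0.683).

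Of the mitochondrial chaperones, HSPE1 and HSPD1, which form the folding chamber of the matrix, had log2 fold changes of 0.46 ± 0.34 and 0.28 ± 0.22 (Si-NEC) and of 0.10 ± 0.24 and 0.17 ± 0.16 (Co-NEC). HSPA9, the mitochondrial HSP70, had 0.03 ± 0.17 and 0.06 ± 0.14. HSPE1 ranged from 138 FPKM in 253-15 to 634 FPKM in 223-15. The regulator HSF1, whose activity is set mostly by trimer formation and not by transcript level, had mean levels of 23.1 and 23.4 FPKM for its 2 entries. Their log2 fold changes lay between -0.12 and 0.12 in both comparisons with No NEC.

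**Figure D2:**
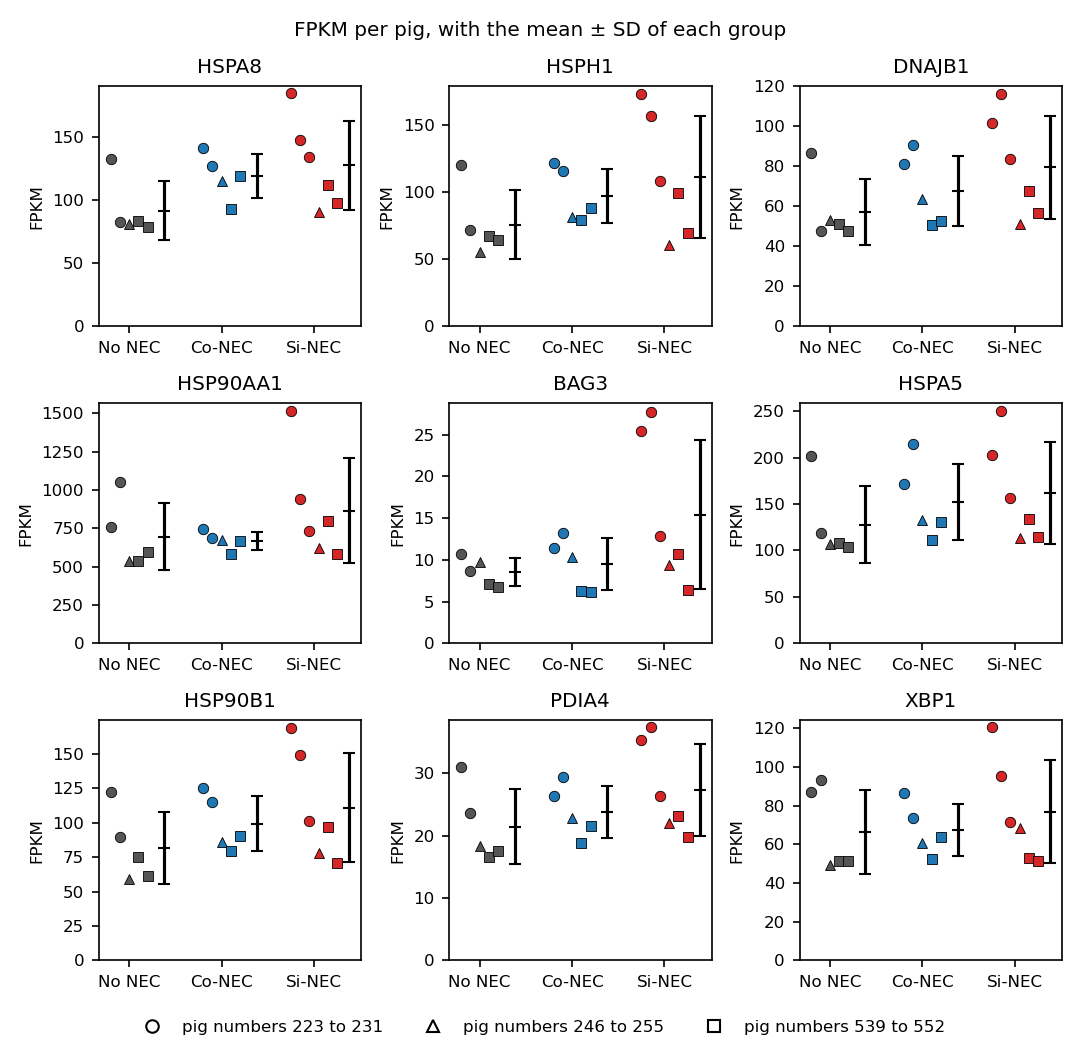
FPKM of 9 members in each pig by group, with the group mean ± SD (n = 5 No NEC, 5 Co-NEC, 6 Si-NEC) beside the points. The shape gives the range the pig's number falls in. The circles (numbers 223 to 231) hold the highest values of every group in most panels, and the groups overlap in all 9 panels.

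HSPA5 (BiP), the ER HSP70 whose release from the sensors starts the unfolded protein response, was at 201, 119, 107, 108 and 104 FPKM in the No NEC pigs. The Co-NEC pigs had 171, 214, 133, 111 and 131 FPKM. Among the Si-NEC pigs the lowest value was 113, the median 145 and the highest 250.5 FPKM. No NEC pig 228-15 reached the level of the high NEC pigs, and the other 4 No NEC pigs lay between 104 and 119 FPKM. The log2 fold change came to 0.33 ± 0.24 in Si-NEC (exact permutation p = 0.223) and 0.26 ± 0.22 in Co-NEC (exact permutation p = 0.286).

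HSP90B1 (GRP94), the ER HSP90 that folds integrins and Toll-like receptors, was at 122, 89.4, 59.0, 75.4 and 61.0 FPKM in the No NEC pigs. The Co-NEC pigs had 125, 115, 86.0, 79.5 and 90.3 FPKM. Among the Si-NEC pigs the lowest value was 70.4, the median 98.9 and the highest 169 FPKM. All 3 groups overlapped. As a log2 fold change, the difference from No NEC was 0.42 ± 0.26 in Si-NEC (exact permutation p = 0.167) and 0.31 ± 0.21 in Co-NEC (exact permutation p = 0.214). The other ER chaperones and cochaperones had smaller values in Si-NEC, 0.11 ± 0.13 for HYOU1, 0.06 ± 0.18 for DNAJB9 and 0.12 ± 0.15 for DNAJC3, and 0.11 ± 0.12, 0.12 ± 0.16 and 0.27 ± 0.16 in Co-NEC.

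Of the lectin chaperones, which hold glycoproteins until they are folded, CALR was at 219, 248, 149, 135 and 148 FPKM in the No NEC pigs and at 209, 228, 176, 152 and 169 FPKM in the Co-NEC pigs. Its Si-NEC values ran from 156 to 327 with a median of 181 FPKM. The groups overlapped, with Si-NEC pig 223-15 at 327 FPKM above every No NEC and Co-NEC pig. Its log2 fold changes were 0.21 ± 0.23 in Si-NEC (exact permutation p = 0.420) and 0.08 ± 0.19 in Co-NEC (exact permutation p = 0.667). CANX, its membrane-bound relative, differed by 0.11 ± 0.15 and 0.21 ± 0.13.

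The protein disulfide isomerases form and rearrange disulfide bonds. PDIA4 was at 31.1, 23.6, 18.4, 16.7 and 17.6 FPKM in the No NEC pigs. The Co-NEC pigs had 26.4, 29.5, 22.9, 18.9 and 21.6 FPKM. Among the Si-NEC pigs the lowest value was 19.8, the median 24.8 and the highest 37.5 FPKM. No Si-NEC pig was as low as the 3 lowest No NEC pigs. Relative to No NEC it differed by 0.34 ± 0.21 (log2) in Si-NEC (exact permutation p = 0.160) and 0.17 ± 0.18 in Co-NEC (exact permutation p = 0.413). PDIA6 was at 84.5, 83.0, 71.8, 54.5 and 65.2 FPKM in No NEC pigs and at 76.9, 85.2, 82.2, 55.5 and 66.8 FPKM in Co-NEC pigs. Its Si-NEC values ran from 55.5 to 97.6 with a median of 74.6 FPKM. The fold changes were close to 0 against their errors, 0.10 ± 0.17 (exact permutation p = 0.561) and 0.03 ± 0.16 (exact permutation p = 0.849) for PDIA6, and 0.02 ± 0.19 and 0.06 ± 0.16 for PDIA3.

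XBP1, the transcription factor that IRE1 activates by splicing its mRNA, was at 87.4, 93.2, 49.4, 51.4 and 51.4 FPKM in the No NEC pigs. The Co-NEC pigs had 86.8, 73.8, 60.8, 52.3 and 63.7 FPKM. Among the Si-NEC pigs the lowest value was 51.6, the median 70.2 and the highest 121 FPKM. The log2 fold change came to 0.20 ± 0.26 in Si-NEC (exact permutation p = 0.437) and 0.06 ± 0.22 in Co-NEC (exact permutation p = 0.825). A gene-level value does not separate spliced from unspliced XBP1.

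ATF6, the sensor that is itself a transcription factor once cut in the Golgi, has 2 entries that went separate ways. The first entry was at 1.65, 2.66, 4.95, 2.70 and 3.41 FPKM in the No NEC pigs and at 4.45, 6.82, 3.39, 5.94 and 9.71 FPKM in the Co-NEC pigs. Its Si-NEC values ran from 2.17 to 5.26 with a median of 2.67 FPKM. Co-NEC pigs held the 3 highest values of the series. The log2 fold change was 0.86 ± 0.29 for Co-NEC over No NEC (adjusted p = 0.812 by limma, exact permutation p = 0.0397) and -0.79 ± 0.27 for Si-NEC over Co-NEC (adjusted p = 0.851 by limma, exact permutation p = 0.0303). The second and stronger entry, at 9.57 to 15.7 FPKM, differed by 0.07 ± 0.15 and -0.06 ± 0.09 in the same comparisons. The table does not say how reads were divided between entries of the same gene ID, so the value of either entry alone is uncertain.

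Of the ATF4 branch only ATF3 and ASNS were measured. ATF3 was at 0.909, 0.288, 0.347, 0.753 and 0.880 FPKM in the No NEC pigs and at 0.535, 0.700, 0.619, 0.559 and 0.423 FPKM in the Co-NEC pigs. Its Si-NEC values ran from 0.440 to 3.39 with a median of 0.705 FPKM, and the highest pig, 246-15, stood apart. The log2 fold change came to 0.39 ± 0.36 in Si-NEC (exact permutation p = 0.392) and -0.05 ± 0.19 in Co-NEC (exact permutation p = 0.778), and the offset of 0.5 makes fold changes at so low a level smaller than the ratio of means. ASNS, the asparagine synthetase that ATF4 raises when amino acids run short, was at 39.3 FPKM in No NEC pig 230-15 and between 15.1 and 29.4 FPKM elsewhere. It was the 1 entry of the 31 with a log2 fold change below 0 in both comparisons with No NEC, at -0.09 ± 0.24 and -0.11 ± 0.23.

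**Figure D3:**
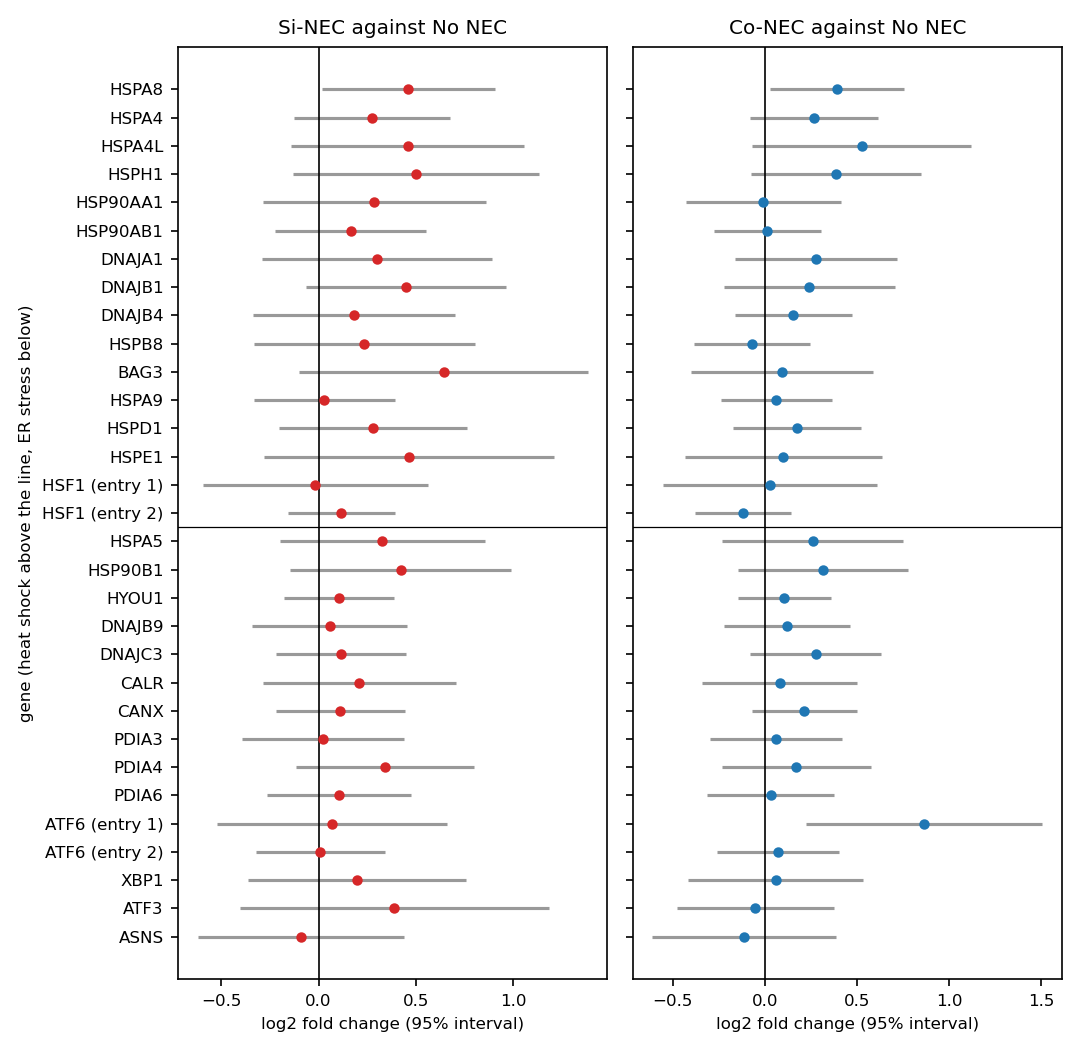
Log2 fold change with its 95% confidence interval (limma) of each of the 31 entries, for Si-NEC against No NEC (left) and Co-NEC against No NEC (right), which share the No NEC pigs. Most points lie to the right of 0, and the intervals that exclude 0 are those of HSPA8 in both panels and of the first ATF6 entry on the right.

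As counts, 15 of the 16 heat shock entries and 14 of the 15 ER stress entries had a log2 fold change above 0 in Si-NEC against No NEC pigs, where 53.8% of all entries did. The medians were 0.28 for heat shock and 0.11 for ER stress entries, against 0.02 over all entries. For Co-NEC against No NEC the counts were 13 of 16 and 13 of 15, where 52.0% of all entries were above 0, with medians of 0.13 and 0.11 against 0.01 over all entries. Between Si-NEC and Co-NEC pigs, 13 of 16 heat shock entries (median 0.11) and 8 of 15 ER stress entries (median 0.02) were above 0, where 50.1% of all entries were. The members are not independent of each other, because the same pigs were high for most of them, and these counts carry no test.

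**Figure D4:**
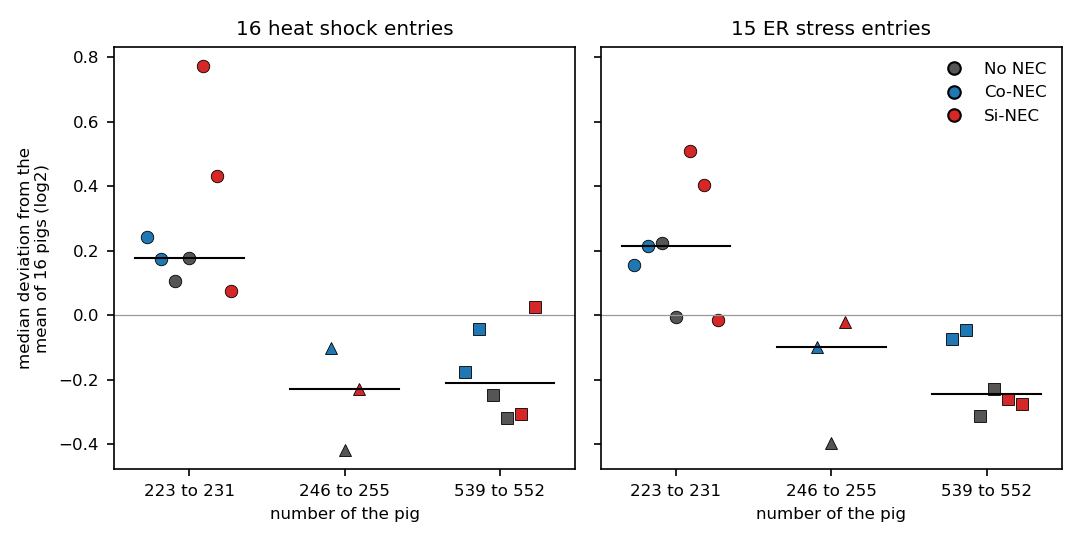
Median deviation of the 16 heat shock entries (left) and the 15 ER stress entries (right) from their means over 16 pigs, on the log2 scale, for each pig by the range its number falls in (7, 3 and 6 pigs). Bars are medians and colours the groups. In the FPKM values as given, the 7 pigs numbered 223 to 231 lie above the other 9 pigs on both sides. After rescaling each pig by its median of ratios (not drawn), pig 230-15 did not.

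Levels of the members also differed along the pigs' numbers, which fall into 3 runs, 223 to 231 (7 pigs), 246 to 255 (3 pigs) and 539 to 552 (6 pigs). What a run stands for is not given by the labels. Each run holds pigs of all 3 groups, 2 No NEC, 2 Co-NEC and 3 Si-NEC in the first, 1 of each in the second and 2 of each in the last. Taking for each pig the median deviation of the 16 heat shock entries from their means, the 7 pigs numbered 223 to 231 ran from 0.08 to 0.77 on the log2 scale, the 3 pigs numbered 246 to 255 from -0.42 to -0.10, and the 6 pigs numbered 539 to 552 from -0.32 to 0.03. For the 15 ER stress entries the ranges were -0.01 to 0.51, -0.40 to -0.02 and -0.31 to -0.05. The first run did not stay apart once each pig was rescaled by its median of ratios. Pig 230-15 of that run was then at 0.06 for heat shock, below 539-14 at 0.10. For ER stress it was at -0.12, below 246-15 at -0.04 and 552-14 at -0.06. In the FPKM values as given, HSPB8, HSPD1, PDIA4 and XBP1 were higher in each of the pigs numbered 223 to 231 than in any other pig. These were 4 of 31 entries, where 0.265% of all entries were, and 0 were lower in each of these pigs, where 0.191% were. For HSPB8 the lowest pig of the run was at 38.5 FPKM and the highest other pig at 38.0 FPKM. For PDIA4 these were 23.6 and 23.1 FPKM. The counts were not repeated after the rescaling. XBP1, for example, was at 71.7 to 121 FPKM in these 7 pigs, at 49.4 to 68.7 FPKM in the second run and at 51.4 to 63.7 FPKM in the last. Of the summed cell type markers, choroid plexus markers had medians of 14.1, 10.8 and 7.21 FPKM in the 3 runs, microglial markers 69.2, 52.0 and 48.0 FPKM and endothelial markers 19.4, 15.6 and 15.7 FPKM. Neutrophil S100A8 was at 3.08, 1.82 and 1.94 FPKM and erythroid markers at 129, 234 and 132 FPKM, while neuronal and astrocyte sums had medians of 1551, 1391 and 1436 FPKM and of 751, 697 and 717 FPKM. Oligodendrocyte precursor sums had medians of 249, 317 and 289 FPKM and oligodendrocyte sums 1479, 1312 and 1732 FPKM. Mural and meningeal sums were at 31.4, 32.6 and 29.3 FPKM and hippocampal neuron sums at 13.2, 11.6 and 12.9 FPKM. Within the choroid plexus sum, TTR had medians of 12.3, 8.73 and 5.06 FPKM. The 2 entries of KCNJ13 had 1.11, 1.15 and 1.44 FPKM and 0.778, 0.871 and 0.734 FPKM. The part of these markers in the result was not tested. The runs were looked at because of these values, so the contrast is a description with no test.

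Within the first run, the 2 No NEC pigs had median heat shock deviations of 0.11 and 0.18, the 2 Co-NEC pigs 0.24 and 0.17, and the 3 Si-NEC pigs 0.77, 0.43 and 0.08. In the second run they were -0.42 in the No NEC, -0.10 in the Co-NEC and -0.23 in the Si-NEC pig. In the last run they were -0.25 and -0.32 in No NEC, -0.18 and -0.04 in Co-NEC, and -0.30 and 0.03 in Si-NEC pigs. The No NEC pigs were the lowest of the second run, and they overlapped the Si-NEC pigs in the first and last. With the run as a covariate, chosen after these values were seen, members with an unadjusted p under 0.05 and a higher level than in No NEC pigs numbered 3 in Si-NEC (HSPH1, HSPA8 and PDIA4; 1.63% of all entries higher, with 0 members and 1.05% lower) and 6 in Co-NEC (HSPA8, HSPA4, HSPH1, DNAJA1, HSP90B1 and the first ATF6 entry; 2.86% higher, with 0 members and 1.60% lower). Between the 2 NEC groups, 0 members were higher in Si-NEC (3.44%) and 1, the first ATF6 entry, was lower (2.35%). In these fits 0 members passed an adjusted p of 0.2 (limma).

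Pigs whose number ends in 15 were compared with those ending in 14 over all 16 pigs, with the group as a covariate. No member passed an adjusted p of 0.2 (0.0221% of all entries did), the smallest being 0.826. At an unadjusted p under 0.05, 10 of 31 members were higher in the 10 pigs with suffix 15, where 2.90% of all entries were, and 0 were lower, where 2.21% were. BAG3 was at 13.9 ± 6.84 FPKM (SD, n = 10) with suffix 15 and 7.24 ± 1.75 (n = 6) with suffix 14, a log2 difference of 0.77 ± 0.20 (adjusted p = 0.826 by limma). XBP1 was at 80.8 ± 20.3 and 53.9 ± 4.83 FPKM, a log2 difference of 0.53 ± 0.15 (adjusted p = 0.855 by limma). PDIA4 was at 27.3 ± 6.06 and 19.6 ± 2.43 FPKM, with 0.43 ± 0.13 (adjusted p = 0.855 by limma). The other 7 were PDIA6, CALR, DNAJB1, HSPA5, HSP90B1, DNAJB4 and HSPB8, with log2 differences between 0.33 and 0.45 and adjusted p-values of 0.911 to 0.915 by limma. Of the heat shock entries 15 of 16 were higher with suffix 15 (median 0.31) and of the ER stress entries 13 of 15 (median 0.22), where 53.9% of all entries were. The suffix and the runs overlap, since the pigs with suffix 14 are those of the last run, and the 3 pigs of the second run, with suffix 15, overlapped the last run in heat shock and ER stress deviations.

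Sex and suffix overlapped, because the 6 pigs with suffix 14 were all male and the 7 females all had suffix 15, and 3 males with suffix 15 were the pigs that part them. Male pigs had lower levels than females for 15 of 16 heat shock entries (median log2 difference -0.19) and 13 of 15 ER stress entries (median -0.14), where 50.8% of all entries were higher in males. No member passed an adjusted p of 0.2 (0.0515% of all entries did). At an unadjusted p under 0.05, BAG3 (-0.67 ± 0.22), HSPA5 (-0.38 ± 0.18), PDIA4 (-0.33 ± 0.14) and ATF3 (-0.52 ± 0.24) were lower in males, 4 of 31 where 2.06% of all entries were (0 were higher, against 1.18%), each with an adjusted p of 1 by limma. Among the 10 pigs with suffix 15 alone, 3 males and 7 females, the medians were 0.04 and 0.02 and 0 members had an unadjusted p under 0.05 (limma; 1.31% of all entries lower and 0.743% higher). Among the 9 males alone, 17 of 31 members were higher with suffix 15 at an unadjusted p under 0.05 (5.36% of all entries) and 1, an HSF1 entry, was lower (4.42%), and the 3 males with suffix 15 are all numbered 223 to 231. With sex as a further covariate there was 1 higher, XBP1 (2.50%), and 0 lower (3.44%). With the suffix as a further covariate, 0 members differed by sex at that p (limma; 1.30% of all entries higher and 2.31% lower in males).

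**Figure D5:**
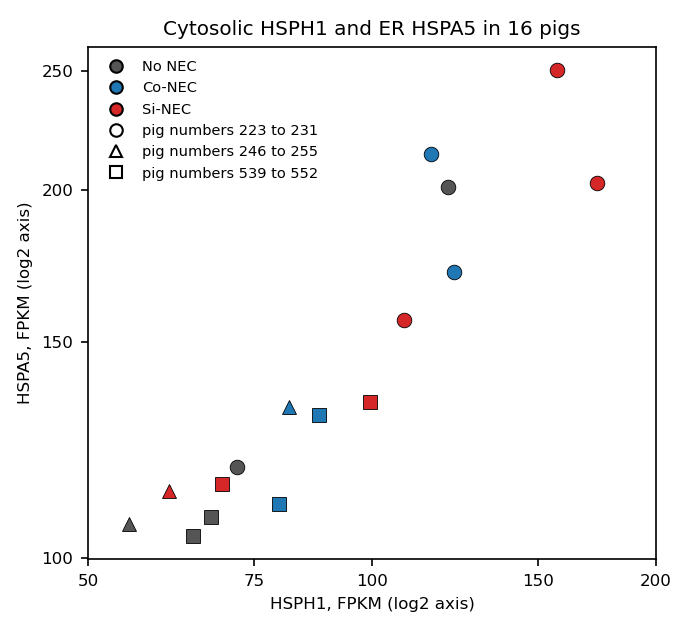
HSPH1 against HSPA5 in 16 pigs, both in FPKM on log2 axes. Colours give the group and shapes the range of the pig's number. The points lie along a line from No NEC pigs 253-15 and 550-14 at the low end to Si-NEC pigs 223-15 and 224-15 at the high end, and all 3 groups are spread along it.

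Cytosolic and ER chaperones moved together across the pigs. Over 16 pigs, on log2(FPKM + 0.5), HSPH1 and HSPA5 had Pearson's r = 0.927 and Spearman's rho = 0.932 (permutation p = 1e-05 for each, the smallest that 100000 permutations can give; adjusted p = 1.25e-05 and 1.67e-05 over the 5 pairs tested). HSPA5 with PDIA4 gave r = 0.953 and rho = 0.950, and HSPA5 with HSP90B1 gave r = 0.919 and rho = 0.941, at the same p-values. HSPH1 with DNAJB1 gave r = 0.926 (permutation p = 1e-05, adjusted 1.25e-05) and rho = 0.826 (permutation p = 0.00016, adjusted 0.0002). HSPH1 with HSP90AA1 was looser, at r = 0.727 (permutation p = 0.00081) and rho = 0.771 (permutation p = 0.00089). Leaving out the 2 pigs whose level of 1 gene of the pair (HSPA5, or HSPH1 in the last 2 pairs) lay farthest from its median, r was 0.938, 0.946, 0.934, 0.881 and 0.485 in the order given. The last, without 223-15 and 224-15, no longer held (permutation p = 0.0754, with rho = 0.697 and permutation p = 0.0072), while leaving out 223-15 and 230-15 instead gave r = 0.901 (permutation p = 5e-05), so that r for this pair depended on which pigs were left out. With the mean of each group removed, r was between 0.741 and 0.957 for the 5 pairs. With the mean of each run of numbers removed, r was 0.861 for HSPH1 with HSPA5, 0.876 for HSPA5 with PDIA4, 0.782 for HSPA5 with HSP90B1, 0.883 for HSPH1 with DNAJB1 and 0.460 for HSPH1 with HSP90AA1 (permutation p = 0.0764). Each pair is read from the same library, so anything that scales a library enters both values, and rescaling each pig by its median of ratios left r between 0.711 and 0.954.

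HSPH1 had r of at least 0.8 with 8 of the 15 other heat shock entries and 4 of the 15 ER stress entries, where 0.655% of 13589 entries did. HSPA5 did so with 5 of 16 and 3 of 14, where 0.346% did. The entry nearest to HSPH1 of all was the ER chaperone HSP90B1 (r = 0.968), then HSPA4 (0.952) and HSPA8 (0.950), and 5 of the 10 nearest entries were members. XPO1, the nuclear export receptor, was the nearest named gene outside the lists (r = 0.932). Lowest of the members were HSF1 (r = -0.48 and 0.30 for its 2 entries), ATF6 (0.18 and 0.20), ASNS (0.17) and ATF3 (0.07). The chaperone, cochaperone and disulfide isomerase entries and BAG3 all had r of at least 0.51, the lowest being the ER cochaperone DNAJB9. Of HSF1, ATF6, ATF3, ASNS and the transcription factor XBP1, only XBP1 lay in that range. It had r = 0.76, above DNAJB9 (0.51) and the disulfide isomerase PDIA3 (0.53). These correlations are over 16 pigs and are given as a description.

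Other genes of the same pathways were read from a second list of 66, of which 36 were found and 33 tested, 17 of heat shock and 16 of ER stress. None passed an adjusted p of 0.2 in any comparison of groups, and 0 had an unadjusted p under 0.05 (limma) where 2.61%, 3.44% and 5.64% of all entries did. Their medians were 0.05 in Si-NEC relative to No NEC (20 of 33 above 0), 0.01 in Co-NEC relative to No NEC (17 of 33) and 0.08 between the 2 NEC groups (22 of 33). Across the 16 pigs, 4 of the 33 had r of at least 0.8 with HSPH1 (0.655% of all entries), with a median r of 0.16 and a lowest of -0.63. With HSPA5, 2 did (0.346%), with a median r of 0.22. CHORDC1, an HSP90 cochaperone, had the largest difference among those with the smallest p, at 10.17 ± 7.08 FPKM in No NEC, 15.7 ± 4.77 in Co-NEC and 16.95 ± 7.02 in Si-NEC pigs (log2 0.77 ± 0.38 and 0.83 ± 0.40 against No NEC, with exact permutation p of 0.127 and 0.108). The isomerase PDIA5 was at 1.86 ± 0.303 FPKM in No NEC and 1.47 ± 0.117 in Si-NEC pigs (log2 -0.26 ± 0.12, exact permutation p = 0.0130, adjusted p = 1 by limma), opposite in sign to PDIA4. STIP1, which bridges HSP70 and HSP90, had 0.39 ± 0.28 in Si-NEC against No NEC (exact permutation p = 0.242). VLDLR had 0.20 ± 0.10 and the small heat shock protein HSPB6 -0.33 ± 0.17 in Co-NEC against No NEC. Between Si-NEC and Co-NEC pigs the smallest p-values were those of VLDLR (-0.18 ± 0.08), SLC3A2 (0.23 ± 0.11) and SESN2 (0.22 ± 0.12).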

How the data were processed

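RNA of the left hippocampus was sequenced from 16 preterm pigs, and groups and sex were read from the sample labels. The authors trimmed reads, aligned them to Sscrofa10.2 with TopHat2 2.1.1 and deposited FPKM values estimated with Cufflinks 2.2.1, and any scaling between pigs is not given in the sources used here. Without counts the depth, and so the counting error of each value, is unknown. Of 24594 rows, 1779 identical ones were dropped. Symbols were joined through a table of pig gene IDs, which named 11001 of 21956 IDs. The 13590 entries averaging 0.5 FPKM or more were fitted as log2(FPKM + 0.5) with limma 3.58.1 in R 4.3.3 (eBayes with trend), each pair of groups alone, adjusted by Benjamini-Hochberg at the threshold of 0.2 that the study used. The suffix and sex comparisons used all 16 pigs with group as covariate. Exact permutation tests over pigs used numpy 2.4.6. The fit was run on simulated entries, drawn independently of each other, to check that planted log2 changes were recovered on average. That check bears on neither the p-values nor the lack of calls here. With these group sizes the smallest exact p is 0.00216 for Si-NEC against either group and 0.00794 for Co-NEC against No NEC.

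Members and lists were chosen with earlier results of these data known. Values were given for a preset set of chaperones and sensors (HSPA8, HSP90AA1, HSPH1, DNAJB1, HSPA5, HSP90B1 and XBP1, with HSPB1, CRYAB, ATF4 and DDIT3 not found). They were also given for members with an unadjusted p under 0.05 in any comparison. No NEC and Co-NEC values are listed pig by pig, and Si-NEC values as lowest, median and highest. Up to 3 other pathway genes were named per comparison of groups. The alternatives were other pseudocounts and filters, rescaling, a joint fit, covariates, array weights, subsets of pigs and leaving out each pig. The plan to search promoters for motifs was not run, because no promoter sequences were used here.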

Additional observations from a re-analysis of the deposited data

Results flagged for a closer look

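In each group of 5 or 6 pigs, the highest and lowest value of every member was compared with the spread of the rest, 93 sets of values in all, and 4 stood apart by Dixon's criterion, where chance gives about 1 in 20 sets. Of these, 3 belonged to No NEC pig 228-15. HSPA8 was at 133 FPKM in this pig against 78.7 to 83.7 FPKM in the other 4 No NEC pigs. DNAJB1 was at 86.6 FPKM against 47.6 to 53.2 FPKM, and HSPA5 at 201 FPKM against 104 to 119 FPKM. The fourth was ASNS at 39.3 FPKM in No NEC pig 230-15, against 15.7 to 20.1 FPKM in the other No NEC pigs. Both are pigs numbered 223 to 231. Tests of whether the group differences varied with sex or number suffix gave 0 members at an adjusted p under 0.2 (limma), the smallest being 0.439. At an unadjusted p under 0.05 the tests by sex gave 5 of 31 members for Si-NEC against No NEC (10.75% of all entries), 2 of 31 for Si-NEC against Co-NEC (10.18% of all entries) and 0 for Co-NEC against No NEC (2.47%). Those by suffix gave 0 in each, where 2.30%, 5.89% and 0.957% of all entries were, in the same order.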

How the results depend on the processing

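No paired analysis was run, because the labels do not say which pigs of different groups belong together. Under the alternatives tried, 0 members were called in any comparison (limma), apart from the first ATF6 entry between Si-NEC and Co-NEC with array weights, 1 call at a log2 fold change of -1.03 and an adjusted p of 0.191. Log2 fold changes and medians below changed sign, and the cause was not tested. In Si-NEC against No NEC the first ATF6 entry was -0.036 with array weights, -0.057 without pigs 223-15 and 230-15, -0.16 with suffix 14 only and -0.10 to 0.24 leaving out each pig, and the ER stress median was -0.063 with suffix 14 only. In Co-NEC against No NEC, HSP90AA1 was 0.11 with array weights, 0.15 without these 2 pigs, 0.13 with suffix 14 only and -0.090 to 0.15 leaving out each pig. XBP1 was -0.016 with suffix 15 only and -0.038 to 0.19 leaving out each pig, and BAG3 -0.14 with suffix 14 only and -0.035 to 0.22 leaving out each pig.

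Between Si-NEC and Co-NEC, without pigs 223-15 and 230-15 the heat shock median was -0.0022, the ER stress median -0.030, HSPA8 -0.048, HSPH1 -0.035, HSPA5 -0.0092, HSP90B1 -0.030 and XBP1 -0.0026. With suffix 14 only the values were -0.012 (heat shock median), -0.14 (ER stress median), -0.012 (HSPA8), -0.012 (HSPH1), -0.038 (HSP90B1) and -0.14 (XBP1). The ER stress median was -0.00031 with sex as covariate and -0.0041 with the run of numbers as covariate, where HSPA5 was -3.64e-06. Leaving out each pig gave -0.0022 to 0.21 (heat shock median), -0.049 to 0.088 (ER stress median), -0.048 to 0.16 (HSPA8), -0.035 to 0.27 (HSPH1), -0.070 to 0.20 (HSPA5), -0.030 to 0.22 (HSP90B1) and -0.0026 to 0.24 (XBP1). The sex medians were 0.040 (heat shock) and 0.017 (ER stress) with suffix 15 only and 0.037 and 0.010 with the suffix as covariate. The correlation of HSPH1 with DNAJB1 was 0.716 with suffix 14 only (exact permutation p = 0.0861), and that of HSPH1 with HSP90AA1 was 0.485 without 2 pigs and 0.460 with run means removed.

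Members at an unadjusted p under 0.05 numbered 0 to 7 in Si-NEC against No NEC as each pig was left out, with 7 without No NEC pig 228-15 (2.30% of all entries higher and 1.97% lower in that fit), and 1 to 8 in Co-NEC against No NEC, with 8 without the same pig (4.10% and 3.39%). Depth is unknown, so counting error could not be set against the spread between pigs.

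The fits with the run of numbers, the suffix comparison in males or with sex as covariate, the sex comparison within suffix 15 or with the suffix as covariate, and the correlations within a suffix or with run means removed were chosen after seeing the data.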
